A study of Mus musculus with 30 samples.

Results

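RNA from mouse tail-tendon fibroblasts treated with blebbistatin was compared directly with RNA from the same kind of cells treated with Y27632, in 6 of the 30 libraries of the series. There were 3 poly(A) RNA libraries per inhibitor, chosen by their labels, and 3 DMSO libraries of the same assay gave the level without inhibitor. Blebbistatin was used at 10 µM, Y27632 at 30 µM, and DMSO is the solvent control. The genotype of every library was labelled wildtype. Cells were grown with 10% serum and treated in DMEM with 0.1% serum. Each inhibitor was given at 1 dose and the doses differ, so a difference between the compounds and a difference in how strongly each one inhibits its target at its dose cannot be told apart. The length of treatment is not given in the sources used here. The labels do not say whether replicates came from separate mice or cultures, so p-values measure only the spread between these libraries, which may be technical.

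Fibroblasts pull on their surroundings with actin filaments and the motor non-muscle myosin II. Blebbistatin binds the myosin head and holds the motor in a state that grips actin weakly. Y27632 blocks the ATP site of the kinases ROCK1 and ROCK2, which lie upstream of myosin: they phosphorylate the myosin light chain and its phosphatase, and they also act on LIM kinases, which regulate the actin-severing protein cofilin. Both drugs therefore lower contractility, but at different points of the pathway. Tension and actin assembly feed into transcription through the co-regulators YAP and TAZ, which bind DNA with TEAD factors, and through serum response factor (SRF), which binds the CArG box with MRTF or ternary complex partners. Tendon fibroblasts make the collagen-rich matrix that carries load, and the proteases that remodel it.

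Total reads in genes ran from 23375386 to 37061737 over the 9 RNA libraries. The fibroblast markers Col1a1, Col1a2, Col3a1, Pdgfra, Pdgfrb, Dcn, Lum, Thy1, Vim, S100a4 and Fap were all above the count minimum. The tendon markers were present too: Tnmd, a membrane protein of mature tendon cells, ran from 756 to 1109.8 normalised counts over the 9 libraries, and Scx, a transcription factor of the tendon lineage, was low, from 58.9 to 89.7. Leukocyte markers were present too, led by Lyz2, a lysozyme of macrophages, at 4618 to 7767 normalised counts over the 9 libraries. The summed normalised counts of the list ran from 9526 to 10727 with blebbistatin, from 9629 to 10905 with Y27632 and from 6753 to 7394 in DMSO, and Cd3e had 0 reads in every library. Of the 9 leukocyte markers tested, 0 were called between the inhibitors, and 1 was called higher with Y27632 without blebbistatin replicate 2. Of 8 endothelial markers 3 were tested, and 1, the receptor gene Tek, was called: it had 2032, 2147 and 2285 with blebbistatin, 2969, 2915 and 3084 with Y27632 and 3321, 3347 and 3298 in DMSO, a log2 difference of -0.47 ± 0.04. Cdh5 ran from 62.6 to 94.1 and was not called, and Cldn5, Tie1 and Pecam1 had 1, 2 and 74 reads over the 9 libraries. In bulk RNA, fewer cells of a type and less RNA per cell cannot be told apart. Blebbistatin replicate 2 stood apart in genes of the interferon response: it was the highest of the 3 blebbistatin libraries for 19 of 19 of these genes, with a median 2.05 log2 units above the DMSO mean, against 0.23 and 0.01 in replicates 1 and 3. Results that rest on this library are given with and without it.

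The inhibitors left the fibroblasts with different RNA over much of the genome, but most differences were small. Of 14834 genes with a mean of at least 10 normalised counts over the 6 inhibitor libraries, 7936 (53.5%) differed at an edgeR adjusted p under 0.05, 4023 (27.1%) higher with blebbistatin and 3913 (26.4%) higher with Y27632. The groups did not overlap for 9019 genes (60.8%). The median absolute log2 difference was 0.34 among the genes called and 0.21 among all genes tested. Differences of at least 1 on the log2 scale were found for 789 genes (5.32%), 513 (3.46%) higher with blebbistatin and 276 (1.86%) higher with Y27632. Log2 differences below are blebbistatin minus Y27632, so a negative value means higher with Y27632, and their standard errors are the log2 difference divided by the square root of the edgeR F statistic. Precision followed the level of a gene. With a mean from 10 to 100 normalised counts, 32.4% of 3448 genes were called and the median standard error was 0.24, and at 1000 or more 66.8% of 5508 genes were called and it was 0.04.

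**Figure D1:**
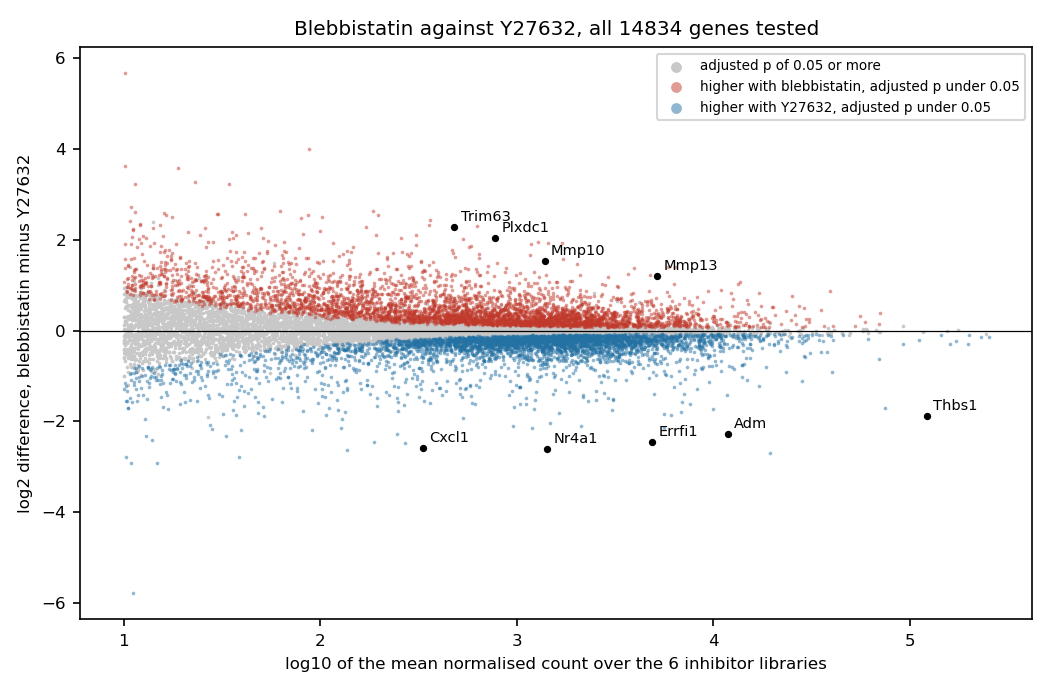
Log2 difference, blebbistatin minus Y27632, of every tested gene against the log10 of its mean normalised count over the 6 inhibitor libraries; coloured points passed the edgeR test. Most called genes lie within 1 log2 unit of 0, and the larger differences include Errfi1 and Nr4a1 below the line and Plxdc1 and Trim63 above it.

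Set beside DMSO, the larger differences came mostly from the blebbistatin libraries. Of the 513 genes higher with blebbistatin by at least 1, 427 were above DMSO with blebbistatin and 0 were below it, with a median log2 change of 1.18. The same 513 genes had a median of -0.11 with Y27632, which raised 72 and lowered 96 of them. Of the 276 genes higher with Y27632 by at least 1, 213 were below DMSO with blebbistatin and 8 above it, with a median of -1.19. With Y27632 93 of these were above DMSO and 69 below it, and their median was 0.08. Over all genes tested, 27.4% were above and 27.3% below DMSO with blebbistatin, and 17% were above and 18.2% below with Y27632. Both comparisons use the same 3 DMSO libraries, and the genes were picked for the difference between the inhibitors, so these counts describe where the groups sit and carry no test.

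Genes among the highest with Y27632 relative to blebbistatin split by where DMSO lay, and 9 of the 10 largest differences are given. Cyp26b1, an enzyme that breaks down retinoic acid, had 40, 41.3 and 39.4 normalised counts in blebbistatin replicates 1, 2 and 3 and 197, 282 and 273 with Y27632, beside 235, 207 and 271 in DMSO. F2rl1, a protease-activated receptor, was at 82.2, 100.2 and 79.7 against 548, 423 and 489, with 401, 456 and 439.7 in DMSO. Adm, which encodes the vasodilator peptide adrenomedullin, was at 4213, 4350.1 and 4371 against 20599, 20508 and 21749, with 21475, 22333 and 22922 in DMSO. In these 3 genes the Y27632 libraries were not called different from DMSO and the blebbistatin libraries lay far below, with log2 differences of -2.63 ± 0.17, -2.47 ± 0.12 and -2.28 ± 0.04 between the inhibitors (edgeR adjusted p = 1.48e-08, 6.83e-10 and 2.25e-14, n = 3 per group, standard error). Lgr5, a receptor for R-spondins, and Ptx3, a secreted pattern recognition protein, were below DMSO with both drugs and lowest with blebbistatin. Their log2 values against DMSO were -2.73 and -2.85 with blebbistatin and -0.47 and -0.70 with Y27632.

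The other 4 of these 9 genes had risen with Y27632. Nr4a1, an orphan nuclear receptor induced within minutes by many stimuli, had 344, 445 and 490.1 normalised counts with blebbistatin, 2612, 2219 and 3003 with Y27632 and 397, 366 and 335 in DMSO. The Y27632 libraries lay above all 6 others, and the log2 difference was -2.61 ± 0.12 (edgeR adjusted p = 3.82e-10). Its relative Nr4a3 had 61.1, 64.2 and 59 against 342, 246 and 421, with 46.6, 37.7 and 39.3 in DMSO. Cxcl1, a chemokine that draws neutrophils, had 74.4, 122 and 102 against 685, 494 and 649.6, with 110.2, 109.5 and 114 in DMSO. In both, blebbistatin was not called different from DMSO by edgeR, with log2 values of 0.57 and -0.14. Errfi1, a feedback inhibitor of the EGF receptor, had 1418, 1603 and 1794 against 9485, 6834 and 9995, with 1217, 1015 and 1087 in DMSO, so that blebbistatin lay a little above DMSO and Y27632 far above both.

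Among the 10 genes highest with blebbistatin, 6 kept their place among the top 10 when blebbistatin replicate 2 was left out. The largest difference was that of 1810011O10Rik, with 409, 342 and 328 normalised counts with blebbistatin, 62.4, 61.7 and 59.7 with Y27632 and 28.6, 22.4 and 29.5 in DMSO, a log2 difference of 2.55 ± 0.12 (edgeR adjusted p = 5.19e-10). Both inhibitors were above DMSO for this gene, and the groups did not overlap. Plin4, a coat protein of lipid droplets, had 635, 638 and 633 with blebbistatin, 116, 137 and 127 with Y27632 and 161, 126 and 133 in DMSO. Trim63, a ubiquitin ligase best known from muscle wasting, had 893, 799 and 862 with blebbistatin, 162, 182 and 183 with Y27632 and 118, 139 and 106 in DMSO. Plxdc1, a plexin domain membrane protein, had 1387, 1329.6 and 1274 with blebbistatin, 308, 340.0 and 329.6 with Y27632 and 159, 133 and 122 in DMSO. The 3 blebbistatin libraries of each lay close together and above all others, and the log2 differences were 2.33 ± 0.09, 2.28 ± 0.08 and 2.03 ± 0.07. Fam13a and Kbtbd11 differed by 2.10 ± 0.10 and 2.05 ± 0.13. The remaining 4 are interferon-induced genes. Usp18, which removes ISG15 from proteins, had 323, 1371 and 268 with blebbistatin and 176, 79.8 and 102 with Y27632, a log2 difference of 2.45 ± 0.52 that became 1.27 without replicate 2. For Gbp9, Gbp6 and Ifit3b the log2 difference went from 2.28, 2.11 and 2.02 to 1.67, 1.39 and 0.92.

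**Figure D2:**
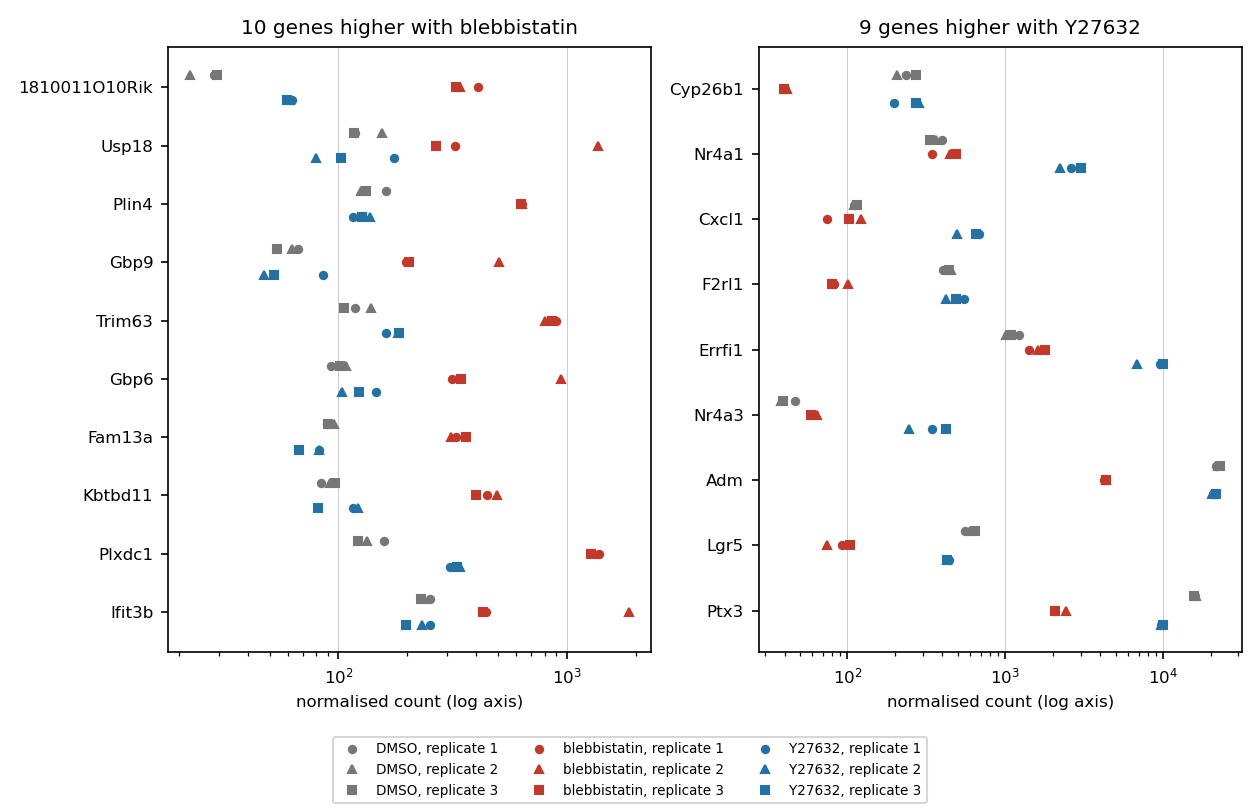
Normalised counts on a log axis of the 10 genes highest with blebbistatin (left) and 9 of the 10 highest with Y27632 (right), 1 point per library, with colour for the group and shape for the replicate number. In the interferon-induced genes Usp18, Gbp9, Gbp6 and Ifit3b, blebbistatin replicate 2 lies well to the right of replicates 1 and 3, while for Plin4, Trim63 and Plxdc1 the 3 libraries lie together.

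Direct targets of YAP and TAZ were mostly lower with blebbistatin than with Y27632. Of 22 list members tested, 15 were higher with Y27632 and 4 with blebbistatin, beside 26.4% and 27.1% of all genes, and the median log2 difference was -0.33 against 0.01 over all genes. These values over all genes are the background of every list count below. The matricellular gene Cyr61 had 2509, 2852 and 3018 normalised counts with blebbistatin, 10214, 9632 and 10734 with Y27632 and 10563, 11414 and 11699.7 in DMSO. Its relative Ctgf had 999, 1324 and 1341 with blebbistatin, 3716, 2988 and 3467 with Y27632 and 3347, 3630.1 and 4088 in DMSO. For both, the Y27632 libraries were not called different from DMSO and the blebbistatin libraries lay below all others, with log2 differences between the inhibitors of -1.87 ± 0.06 and -1.47 ± 0.10 (edgeR adjusted p = 1.76e-11 and 3.89e-08). Amotl2, an angiomotin that binds YAP, had 4621, 5157 and 4983 with blebbistatin, 16359, 16070.1 and 16404 with Y27632 and 22858, 23099.6 and 22907 in DMSO. Nuak2, a kinase of the AMPK family, had 439.8, 454 and 508 with blebbistatin, 2202, 1834 and 2161 with Y27632 and 1748, 1836 and 1922 in DMSO, the widest gap of the list at -2.14 ± 0.07. Ankrd1, a nuclear ankyrin repeat protein, was below DMSO with both drugs, at log2 values of -1.33 and -0.58, and differed between them by -0.75 ± 0.14. Lats2, a kinase that restrains YAP, differed by -0.52 ± 0.04 and the receptor tyrosine kinase Axl by -0.20 ± 0.03. In the opposite direction lay Gadd45a, a stress and growth arrest gene, at 1907, 1770.1 and 2018 with blebbistatin against 588, 568 and 628, a log2 difference of 1.68 ± 0.07, and the growth factor gene Tgfb2 at 0.85 ± 0.07.

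The chromatin of the same treatments had been compared with DMSO by ATAC-seq, which marks accessible DNA, and the authors' deposited table for blebbistatin also lists matches of 1 motif holding the TEAD core GGAATG in its sites. Sites outside chromosome 18 that the authors' annotation links to genes of the lists or to other named genes hold 31 such matches. Of these, 6 are shown. They were chosen after the values were seen, as examples at sites that the annotation links to genes that differ between the inhibitors. The RNA of Gbp2 was higher with blebbistatin and that of the other 5 with Y27632. Except for the Gbp2 site, at -2583 bases, the sites lie from -46079 (Bmp4) to -279147 (Adamts5) bases from the linked start. The matches are written along the motif, 5′ to 3′, with the core in capitals, and positions are mm10 positions of the site.
Cyr61, site chr3:145702797-145703054: tGGAATGcag
Cyp26b1, site chr6:84706211-84706378: aGGAATGcaa
Bmp4, site chr14:46436374-46437121: aGGAATGcaa
Adamts5, site chr16:86180132-86180412: aGGAATGttt
Klf4, site chr4:55579071-55579225: tGGAATGctg
Gbp2, site chr3:142617990-142618169: aGGAATGtgg

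In the authors' deposited table the Cyr61 site, intergenic, had a log2 difference from DMSO of -1.61 with blebbistatin, and in the authors' deposited table for Y27632 it had -1.37. The authors' deposited table gave -1.46 with blebbistatin for the Cyp26b1 site, which lies in an intron of another transcript. For the Gbp2 site, upstream of the Gbp2 start and in an intron of another transcript, the authors' deposited table gave -1.85 with blebbistatin. At a further intergenic site linked to Bmp4, chr14:46475647-46475972, the authors' deposited tables gave -2.07 with blebbistatin and -1.49 with Y27632. These are differences from shared DMSO libraries with no values per library, so the inhibitors were not compared at the sites. RNA of genes linked to sites of these tables was counted instead. The blebbistatin table has 953 sites lower than DMSO, linked to 520 tested genes, of which 230 (44.2%) were higher with Y27632 and 109 (21%) with blebbistatin, with a median of -0.13. The Y27632 table has 176 sites lower than DMSO, linked to 111 tested genes. Of these 48 (43.2%) were higher with Y27632 and 19 (17.1%) with blebbistatin, with a median of -0.15. The shares over all tested genes were 26.4% higher with Y27632 and 27.1% higher with blebbistatin. Sites above DMSO were few, 17 in the blebbistatin table and 31 in that of Y27632. Of the 10 and 21 tested genes linked to them, 7 and 10 were higher with blebbistatin.

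Genes of the actin cytoskeleton and SRF targets fell against DMSO with both drugs, 20 of 24 with blebbistatin and 19 of 24 with Y27632, with medians of -0.59 and -0.46. Between the inhibitors 13 were higher with Y27632 and 4 with blebbistatin, and the median log2 difference was -0.19. Fhl2, a LIM domain co-regulator, had 562, 616 and 551 normalised counts with blebbistatin, 1484, 1523 and 1331 with Y27632 and 2362, 2404 and 2505 in DMSO, and was the member with the widest gap, at -1.33 ± 0.06 (edgeR adjusted p = 3.35e-10). The adhesion proteins Zyx and Vcl differed by -0.66 ± 0.03 and -0.47 ± 0.03, with the Y27632 libraries between blebbistatin and DMSO. Smooth muscle actin Acta2, a myofibroblast gene, had 2185, 2070.0 and 2516 with blebbistatin, 2548, 2555 and 2576 with Y27632 and 4319.8, 4281 and 4621 in DMSO. Its gap of -0.18 ± 0.06 became -0.13 without blebbistatin replicate 2 and was then not called (edgeR adjusted p = 0.0539). The cytoplasmic actins went opposite ways. Actb was higher with Y27632, at -0.30 ± 0.03, and Actg1 was higher with blebbistatin, at 0.17 ± 0.03. The filament cross-linker Flna had a log2 difference of -0.01 with a 95% interval of -0.08 to 0.06 and was not called. Its values were 34803, 35499 and 35957 with blebbistatin and 34483, 36376 and 36114 with Y27632, both sets below 50684, 51117 and 47689 in DMSO.

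RNA of the drug targets and of genes that act with them also differed. Rock2, a target of Y27632, had 6685, 6702 and 7121 normalised counts with blebbistatin, 18271, 17949 and 18480.3 with Y27632 and 23331, 24259.8 and 23423 in DMSO, so blebbistatin lay lowest by a wide margin (-1.42 ± 0.03, edgeR adjusted p = 6.28e-13). The other kinase gene, Rock1, was not called, with a log2 difference of -0.07 and a 95% interval of -0.14 to 0.01. Rhob, a GTPase that is induced as an early gene, had 2789, 3188 and 2839 with blebbistatin, 7588, 7424 and 8084 with Y27632 and 4977, 5221 and 5154 in DMSO. Its Y27632 libraries were above DMSO and its blebbistatin libraries below, a log2 difference of -1.39 ± 0.05 between the inhibitors. Rnd3, which binds and restrains ROCK1, was lower with blebbistatin, at -1.32 ± 0.04. Of the myosin heavy chains that blebbistatin blocks, Myh9 did not differ beyond its error, with 23171, 24046 and 23946 against 23152, 24297 and 24189 and a 95% interval of -0.08 to 0.06, and Myh10 differed by 0.16 ± 0.05, a call that was lost without blebbistatin replicate 2 or 3 or Y27632 replicate 1. Higher with blebbistatin were Ppp1r12b, a targeting subunit of myosin phosphatase, at 0.70 ± 0.07, and the citron kinase gene Cit at 0.56 ± 0.10.

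A large shift of a whole list was that of immediate early transcription factors, the genes that cells switch on first after a stimulus. Of 26 tested, 23 were higher with Y27632 and 1 with blebbistatin, 14 of the 23 by at least 1, and the median log2 difference was -1.05. Against DMSO the list had a median of 0.80 with Y27632, where 22 rose and 0 fell, and of 0.17 with blebbistatin, where 9 rose and 8 fell. Fos had 156, 142 and 171 normalised counts with blebbistatin, 382, 330.1 and 405 with Y27632 and 125, 105 and 114 in DMSO. Egr2, a zinc finger factor that also acts in tendon, had 245, 284 and 366 with blebbistatin, 843, 743 and 870.4 with Y27632 and 149, 135 and 149.9 in DMSO. The groups did not overlap in either gene, and blebbistatin lay between DMSO and Y27632, with log2 differences of -1.25 ± 0.10 and -1.45 ± 0.11 (edgeR adjusted p = 1.63e-07 and 6.55e-08). Egr1 and Egr3 had the same order of groups, at -0.71 ± 0.12 and -1.39 ± 0.13. Other members were on opposite sides of DMSO. Klf4 had 3144, 3408 and 3264 with blebbistatin, 11256, 11166 and 11499 with Y27632 and 7948, 7847 and 7939 in DMSO. Klf2, Myc and Nr4a2 had the same arrangement, with log2 values against DMSO of -0.80, -0.56 and -0.31 with blebbistatin and 0.80, 0.68 and 0.79 with Y27632. Among the partners of Fos, Junb differed by -1.13 ± 0.11 and Jun by -0.49 ± 0.07. Fosb was the member higher with blebbistatin, by 0.37 ± 0.15, at low counts. DESeq2 did not call it (adjusted p = 0.103), and the edgeR call was lost without DMSO replicate 2, without Y27632 replicate 2 or 3, or without any 1 of the blebbistatin libraries, which leaves 0 members higher with blebbistatin.

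Feedback inhibitors and growth factor ligands of the MAP kinase pathway, which are induced when it is active, leaned the same way. Of 23 tested, 14 were higher with Y27632 and 5 with blebbistatin, with a median log2 difference of -0.34, and 17 were above DMSO with Y27632 and 15 with blebbistatin. Spry1, a Sprouty inhibitor of receptor signalling, had 569.8, 626 and 660.3 normalised counts with blebbistatin, 2516, 2376 and 2682 with Y27632 and 1106, 1080.1 and 1044 in DMSO. The phosphatase gene Dusp1 had 1314, 1427 and 1405 with blebbistatin, 3988, 3747 and 4277 with Y27632 and 2181, 2189.6 and 2169 in DMSO. Both lay below DMSO with blebbistatin and above it with Y27632, with log2 differences between the inhibitors of -2.03 ± 0.06 and -1.53 ± 0.05. Hbegf and Ereg, ligands of the EGF receptor, were above DMSO with Y27632 and did not pass the test against DMSO with blebbistatin. Hbegf had 505, 544 and 586 against 1754, 1468 and 1778, and the log2 differences were -1.61 ± 0.08 and -1.92 ± 0.14 (edgeR adjusted p = 7.27e-10 and 3.77e-08). Spry2, Spry4 and Dusp6 were above DMSO with both drugs and higher with Y27632, with log2 differences of -0.86 ± 0.07, -0.99 ± 0.08 and -0.61 ± 0.11. The transcription factor gene Etv4 was higher with blebbistatin, at 0.70 ± 0.11, as was Dusp4, at 0.47 ± 0.11.

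Promoters of a few genes with opposite behaviour are shown because they hold a motif of a factor family that responds to these pathways. Each is the 250 bases before a RefSeq transcription start of GRCm38.p6, 5′ to 3′ along the gene. Capitals mark the AP-1 site TGACTCA or its reverse complement TGAGTCA (Mmp13, Mmp10), the cyclic AMP response element (CRE) TGACGTCA (Dusp1), the CArG box (Egr2) and the TEAD core GGAATG or its reverse complement CATTCC (Cyr61). Mmp13 and Mmp10 were higher with blebbistatin, and Dusp1, Egr2 and Cyr61 with Y27632. The motifs did not go with 1 direction among the named genes. The AP-1 site also lies before Il6 (log2 difference -2.16), and the TEAD core before Trim63 (2.28).
Mmp13, chr9:7272264-7272513, plus strand: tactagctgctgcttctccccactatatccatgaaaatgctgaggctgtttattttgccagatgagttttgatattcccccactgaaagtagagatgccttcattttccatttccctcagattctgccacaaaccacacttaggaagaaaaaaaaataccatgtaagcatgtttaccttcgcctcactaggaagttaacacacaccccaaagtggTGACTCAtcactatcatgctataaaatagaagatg
Mmp10, chr9:7502092-7502341, plus strand: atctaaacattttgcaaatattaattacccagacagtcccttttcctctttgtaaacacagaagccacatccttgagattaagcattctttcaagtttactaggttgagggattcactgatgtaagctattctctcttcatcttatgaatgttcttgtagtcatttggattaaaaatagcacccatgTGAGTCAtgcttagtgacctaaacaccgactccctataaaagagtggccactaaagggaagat
Dusp1, chr17:26508473-26508722, minus strand: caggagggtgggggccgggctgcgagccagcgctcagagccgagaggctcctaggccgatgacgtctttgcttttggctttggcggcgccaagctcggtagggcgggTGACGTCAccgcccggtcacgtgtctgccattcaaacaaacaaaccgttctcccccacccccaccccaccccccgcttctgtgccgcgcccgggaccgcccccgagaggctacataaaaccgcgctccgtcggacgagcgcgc
Egr2, chr10:67537619-67537868, plus strand: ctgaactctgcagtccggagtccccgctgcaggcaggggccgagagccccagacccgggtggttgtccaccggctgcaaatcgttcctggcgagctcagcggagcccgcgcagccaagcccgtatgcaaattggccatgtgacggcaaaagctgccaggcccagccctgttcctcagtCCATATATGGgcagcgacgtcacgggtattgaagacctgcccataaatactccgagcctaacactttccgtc
Cyr61, chr3:145649986-145650235, minus strand: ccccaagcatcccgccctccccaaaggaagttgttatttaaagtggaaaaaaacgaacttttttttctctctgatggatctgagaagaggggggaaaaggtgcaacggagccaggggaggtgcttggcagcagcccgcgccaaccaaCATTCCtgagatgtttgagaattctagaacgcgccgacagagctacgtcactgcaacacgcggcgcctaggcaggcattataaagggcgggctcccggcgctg

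These are matches of letters on either strand, and no factor was measured on them. The AP-1 match of Mmp13 begins 35 bases before the start and that of Mmp10 63 bases before it. A RefSeq promoter was found for 11423 of the 14834 genes tested, for 370 of the genes higher with blebbistatin by at least 1 and for 192 of those higher with Y27632 by at least 1. The AP-1 site was in 4.25% of all tested genes with a promoter, in 12.4% of the 370 and in 6.77% of the 192. For the CRE these shares were 2.91%, 1.89% and 4.69%, for the TEAD core 13.1%, 17.6% and 16.1%, and for the CArG box 1.39%, 0.811% and 2.6%. Counted over all 32851 promoter windows, with some genes having several, the shares were 4.46% for AP-1, 1.55% for the CRE, 12.6% for the TEAD core and 1.47% for the CArG box. The shares were not tested.

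Matrix proteases and their inhibitors moved in both directions, and Mmp13, Mmp10 and Mmp3, were higher with blebbistatin. Of 33 tested, 14 were higher with blebbistatin and 8 with Y27632, with a median log2 difference of 0.03. Mmp13, an interstitial collagenase, had 7842, 7902 and 7443 normalised counts with blebbistatin, 3504, 3205 and 3344 with Y27632 and 567, 514 and 550.3 in DMSO. Mmp10, a stromelysin, had 2428, 2144 and 2045 with blebbistatin, 832, 709 and 741 with Y27632 and 176, 149.6 and 208 in DMSO. Both drugs raised these genes, blebbistatin more, by 1.21 ± 0.04 and 1.53 ± 0.08 (edgeR adjusted p = 2.12e-11 and 1.96e-09). Mmp3, the other stromelysin, differed by 0.83 ± 0.06, the membrane protease gene Mmp14 by 0.88 ± 0.03 and the gelatinase gene Mmp2 by 0.54 ± 0.03. Adamts15, a versican and aggrecan protease, had 1029.6, 896 and 1016 with blebbistatin, 268, 288 and 244 with Y27632 and 71, 96.6 and 86 in DMSO. Mmp11 had 5298, 5488 and 5871 with blebbistatin, 2306, 2363 and 2365 with Y27632 and 2201, 2263 and 2120.1 in DMSO, and Y27632 was not called different from DMSO. The cathepsin gene Ctsk, whose product cleaves collagen in lysosomes and outside the cell, differed by 0.89 ± 0.03. Lower with blebbistatin were the aggrecanase genes Adamts1 and Adamts5, at -1.39 ± 0.05 and -1.22 ± 0.04, and the inhibitor gene Timp3, at -1.07 ± 0.03. Timp1, another inhibitor, was not called, with a log2 difference of 0.01 and a 95% interval of -0.12 to 0.15.

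Structural matrix genes differed less. Of 39 tested, 22 were higher with Y27632 and 8 with blebbistatin, with a median of -0.14, and the 8 became 5 without blebbistatin replicate 2 or without Y27632 replicate 1. Thbs1, a matricellular glycoprotein, was the exception in size, with 49835, 57430.5 and 58148 normalised counts with blebbistatin, 201809, 191439 and 219217 with Y27632 and 263497, 283011 and 268959 in DMSO, a log2 difference of -1.89 ± 0.06. Among the fibrillar collagens, Col1a1 differed by -0.14 ± 0.05 with overlapping groups, Col1a2 by -0.14 ± 0.04 and Col5a2 by -0.28 ± 0.03, and Col3a1 was not called (-0.08, 95% interval -0.15 to -0.00). The Col1a1 call was lost without blebbistatin replicate 1 or 3 or Y27632 replicate 2 or 3, and Col3a1 was called, at -0.11, without blebbistatin replicate 2. The crosslinking enzyme gene Lox differed by -0.29 ± 0.04. Tenascin X, Tnxb, was higher with blebbistatin, at 0.69 ± 0.06. Of 15 genes of tendon identity, 7 were higher with Y27632 and 2 with blebbistatin, and the 2 became 1 without blebbistatin replicate 3 or Y27632 replicate 1 or 3. Tnmd had 805, 899.6 and 756 against 1013, 1109.8 and 1071, and the collagen-binding proteoglycan gene Fmod 3228, 3579.8 and 3106 against 4231, 4409 and 4414. The log2 differences were -0.37 ± 0.07 and -0.40 ± 0.05, and the DMSO mean lay between the inhibitors for Tnmd and below both for Fmod. Scx was not called, with 58.9, 89.7 and 59 against 76.2, 85.2 and 87.5 and a 95% interval of -0.62 to 0.13, and was called, at -0.49, without blebbistatin replicate 2.

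Ligands and inhibitors of the TGF-beta family were divided. Of 32 tested, 17 were higher with Y27632 and 9 with blebbistatin, with a median of -0.25. Inhba, which encodes the activin A subunit, had 768, 776 and 786 normalised counts with blebbistatin, 2707, 2456 and 2976 with Y27632 and 2362, 2621 and 2466 in DMSO. Bmp4 had 152, 166 and 164 with blebbistatin, 432, 425 and 423 with Y27632 and 693, 649 and 695 in DMSO, falling with both drugs and further with blebbistatin. The log2 differences were -1.80 ± 0.06 and -1.40 ± 0.07 (edgeR adjusted p = 3.61e-11 and 7.27e-10). Higher with blebbistatin were Gdf10, with 284, 325 and 268 against 138, 127 and 132 and 22.3, 22.4 and 30.7 in DMSO, and the BMP antagonist gene Grem1, with 3166, 2930.0 and 3024 against 1746, 1759 and 1937 and 701, 590.1 and 719.8. Both drugs raised these genes, which differed between them by 1.14 ± 0.11 and 0.75 ± 0.06. The BMP-responsive genes Id1 and Id3 were higher with blebbistatin, at 0.57 ± 0.11 and 0.93 ± 0.04. Id4, of the same gene family, lay the other way, with a log2 difference of -0.63. Smad7, an inhibitory Smad induced by TGF-beta, was higher with Y27632, at -0.40 ± 0.07.

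Inflammatory mediators were more often higher with Y27632, 16 of 27 tested against 7 higher with blebbistatin, with a median of -0.39. Ptgs2, the inducible cyclooxygenase, had 1359.5, 1416 and 1695 normalised counts with blebbistatin, 5038, 4148 and 5802 with Y27632 and 1311, 1089 and 1341 in DMSO. It rose with Y27632 and was not called against DMSO with blebbistatin, and the log2 difference between the inhibitors was -1.74 ± 0.11 (edgeR adjusted p = 1.22e-08). Ccl2, a monocyte chemokine, had 3873, 4573 and 3477 with blebbistatin, 13502, 10689 and 12386 with Y27632 and 8360.0, 7906 and 7984 in DMSO, above DMSO with Y27632 and below it with blebbistatin, and Ccl7 had the same order with a gap of -1.51 ± 0.08. The cytokine gene Il6 was low throughout, at 8.89, 11.4 and 11.8 with blebbistatin and 55.4, 33.5 and 57.6 with Y27632, without overlap. The chemokine gene Cxcl12 was higher with blebbistatin, with 15682, 15211 and 16276 against 11060.3, 10605 and 10784 and 6865, 6847 and 6953 in DMSO, and so was Cx3cl1, at 1.03 ± 0.08. Of 9 leukocyte markers tested, 6 rose against DMSO with blebbistatin and 7 with Y27632, and 0 were called between them. Their part in these differences was not tested.

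Genes of cholesterol synthesis and uptake were lower with blebbistatin than with Y27632. Of 25 members tested, 24 were higher with Y27632 and 0 with blebbistatin, with a median of -0.46, and all 25 were below DMSO with each drug, with medians of -1.09 with blebbistatin and -0.53 with Y27632. Hmgcs1, the HMG-CoA synthase of the pathway, had 12209, 11584 and 13142 normalised counts with blebbistatin, 18905, 18946 and 18473 with Y27632 and 30091, 30779 and 31773 in DMSO. Insig1, which holds back activation of the SREBP factors when sterols are plentiful, had 7877, 7570.2 and 8154 with blebbistatin, 11037, 11517 and 10921 with Y27632 and 19089, 18729.9 and 19402 in DMSO. The 3 groups stood apart in the same order, with log2 differences between the inhibitors of -0.61 ± 0.04 and -0.50 ± 0.03 (edgeR adjusted p = 1.85e-08 and 1.99e-08). The squalene epoxidase gene Sqle differed by -0.62 ± 0.03, and Srebf2, which encodes the transcription factor of the pathway, by -0.34 ± 0.03. Fdft1, squalene synthase, was the member not called, at -0.08, and it was called, at -0.13, without blebbistatin replicate 3.

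NRF2 and oxidative stress genes were higher with blebbistatin, 13 of 16 tested against 0 higher with Y27632, with a median of 0.25. Hmox1, heme oxygenase, had 10015, 9717 and 10099 normalised counts with blebbistatin, 3793, 3512 and 3929.7 with Y27632 and 4021, 3927 and 4003 in DMSO, so that Y27632 was not called different from DMSO and blebbistatin lay 1.41 ± 0.04 above Y27632 on the log2 scale (edgeR adjusted p = 3.64e-12). The quinone reductase gene Nqo1 differed by 0.57 ± 0.06 and Gclm, for glutathione synthesis, by 0.28 ± 0.04. Among 8 genes of the aryl hydrocarbon receptor, 2 were higher with each drug. Cyp1a1, its classical target, was above DMSO with both, at 177, 167 and 148 with blebbistatin, 124, 174 and 151 with Y27632 and 38.1, 33 and 40.5 in DMSO. Between the inhibitors it was not called, with a 95% interval of -0.15 to 0.41. The receptor gene Ahr was lower with blebbistatin, at -1.31 ± 0.06.

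The lists of stress response, cell cycle, glycolysis, clock, p53 and heat shock genes had medians from -0.15 to 0.04. Their shares called higher with Y27632 reached 55%, for the integrated stress list, beside 26.4% of all genes. Of 20 genes of the integrated stress and unfolded protein responses, 11 were higher with Y27632 and 4 with blebbistatin, with a median of -0.13. The transcription factor gene Atf4 was below DMSO with both drugs, at log2 values of -1.12 and -0.90, and Ddit3, which encodes CHOP, was higher with blebbistatin, at 0.61 ± 0.07. Of 30 cell cycle genes, 8 were higher with Y27632 and 2 with blebbistatin, with a median of -0.13, and the proliferation marker Mki67 was not called, with a 95% interval of -0.29 to 0.21. Of 26 genes of glycolysis and hypoxia, 12 were higher with Y27632 and 7 with blebbistatin, with a median of -0.07, and the angiogenic factor gene Vegfa differed by -0.49 ± 0.05. For 19 clock genes the counts were 9 and 7, with a median of -0.15. Dbp and Nr1d1, clock output and repressor genes, were higher with blebbistatin, at 0.81 ± 0.09 and 0.58 ± 0.04, and the period gene Per1 with Y27632, at -0.53 ± 0.06. Of 16 p53 targets 6 were higher with blebbistatin and 3 with Y27632, with a median of 0.04, and of 14 heat shock genes 3 and 6, with a median of -0.04.

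**Figure D3:**
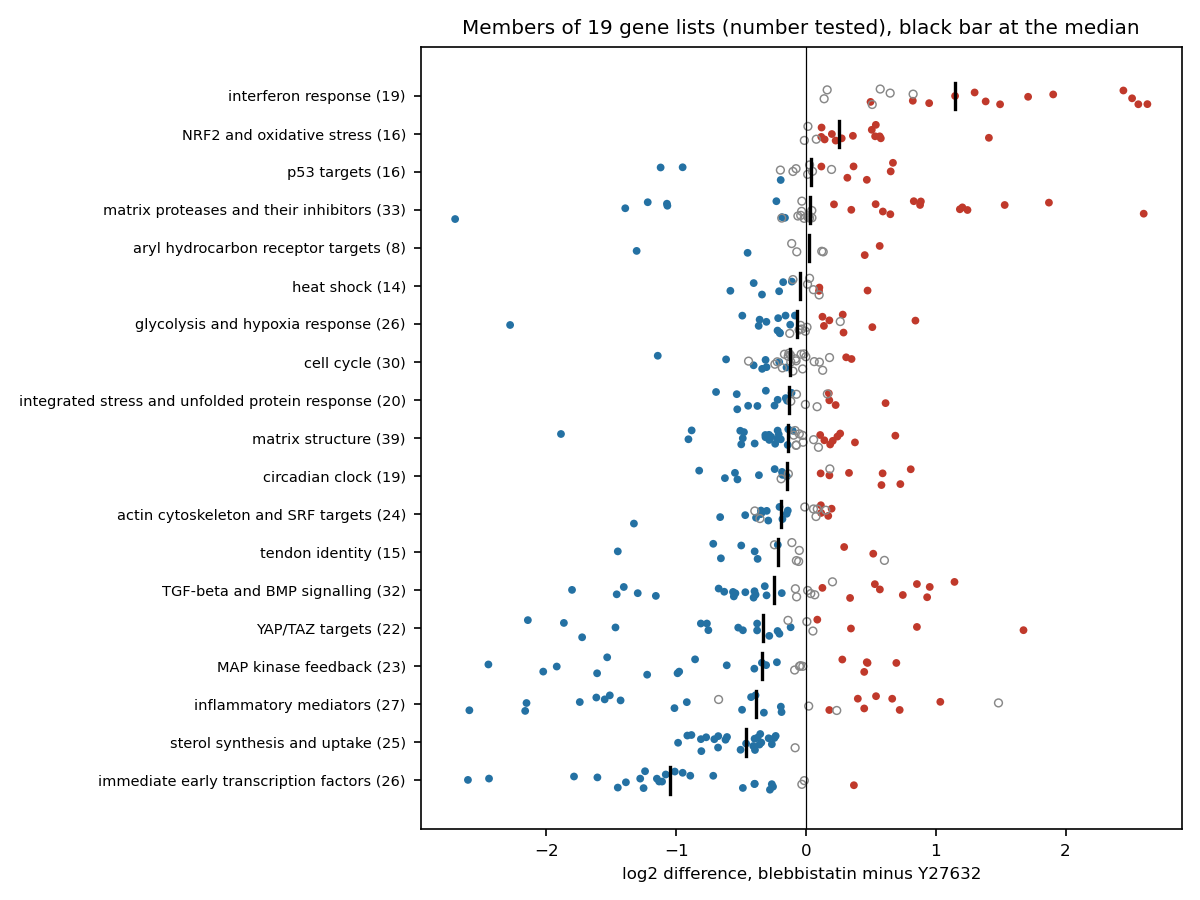
For each list, the log2 difference, blebbistatin minus Y27632, of every tested member, with a mark at the list median. Medians run from -1.05 for immediate early transcription factors to 1.15 for the interferon response, a value that drops to 0.12 without blebbistatin replicate 2.

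Interferon response genes had the highest list median, but this rested on 1 library. Of 19 tested, 13 were higher with blebbistatin and 0 with Y27632, with a median of 1.15. Without blebbistatin replicate 2, 5 were higher with blebbistatin and 1 with Y27632, with a median of 0.12. Ifit1, an antiviral RNA-binding protein, had 476, 5139 and 339 normalised counts in blebbistatin replicates 1, 2 and 3 and 869.9, 326 and 385 with Y27632, and its groups overlapped. Its log2 difference of 1.90 became -0.42 without blebbistatin replicate 2 and 1.65 without Y27632 replicate 2, with no call in either case, and the call was also lost without DMSO replicate 1 or 2 or Y27632 replicate 3. Irf7, a transcription factor of the response, had 574, 1846 and 437 against 515, 308 and 340.3, and was not called without blebbistatin replicate 2 or Y27632 replicate 2. Gbp2, a guanylate-binding protein, had 1222, 2241 and 1385 against 781, 663 and 752, without overlap, and its log2 difference went from 1.15 to 0.83. The 3 Y27632 libraries also spread: their medians over the list were 0.24, -0.39 and -0.20 relative to the DMSO mean. DESeq2 called 8 members higher with blebbistatin, limma 7, and edgeR without Y27632 replicate 2 called 6.

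**Figure D4:**
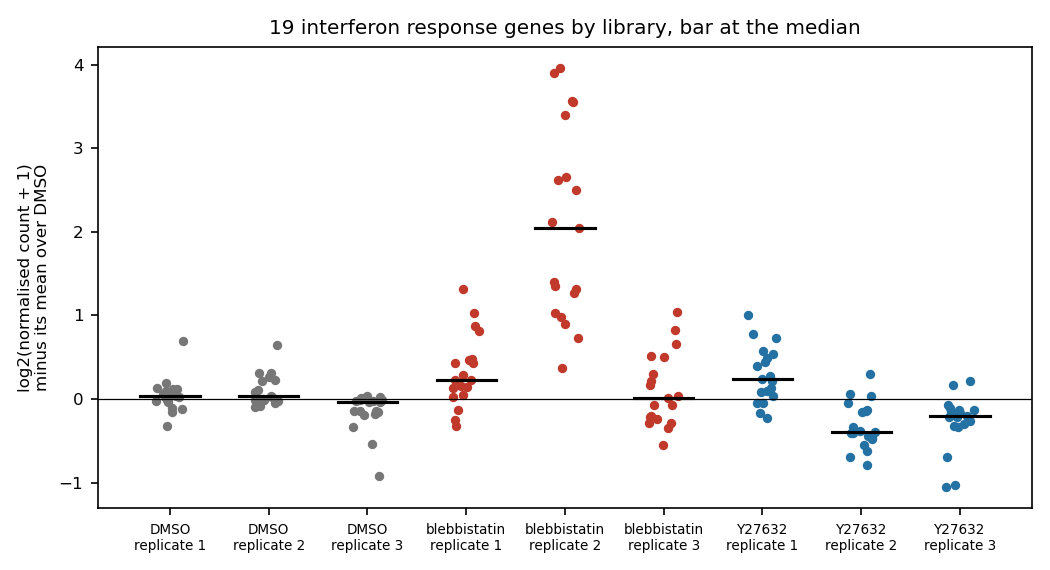
Log2(normalised count + 1) of the tested interferon response genes in each of the 9 libraries, relative to the mean over DMSO, with 1 point per gene and a bar at the median. Blebbistatin replicate 2 has a median of 2.05, while the other 8 libraries have medians from -0.39 to 0.24.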

How the data were processed

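Each inhibitor was read from its own deposited table, whose values the authors gave as normalised counts (a signal per gene); that they are counts divided by 1 size factor per library was worked out from the values. Within 0.01 reads, 100% of values above 0 were whole multiples of 1 step per library, so whole reads were recovered for all 9 RNA libraries and joined over 35972 genes. The DMSO reads of both tables differed at 0 genes. Per the submitters' processing notes, HISAT2, Picard, featureCounts, DESeq2, Bowtie2, SAMtools, MACS2, DiffBind, HOMER and the build mm10 were used, with no roles given. The use of strand is not given in the sources used here, so reads of overlapping genes on opposite strands cannot be told apart.

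Genes with a mean of at least 10 normalised counts over the 6 inhibitor libraries were fitted with edgeR 4.0.16 (quasi-likelihood, TMM) in R 4.3.3 on all 9 libraries, with Benjamini-Hochberg adjustment over all 14834 genes and a threshold of 0.05. Intervals of 95% are those of the fit. Normalised counts in the text are the recovered reads on 1 common scale. Named are the 10 highest and 10 lowest log2 differences among called genes with a mean of at least 100 and no overlap, and members of the lists. A few genes within this rule are left out here. Genes and lists were chosen with earlier results of these data known. Library depth limits low genes, as the standard errors by level show. The deposited site tables give log2 differences with p-values and FDR made by the authors, as the file headers show. The log2 changes and p-values of the authors' RNA tables were not used. Per-sample columns without a labelled sample numbered 0. The fit was tested on simulated data with 200 changed genes among 14834: 98.5% were recovered, and 13 of 210 calls were unchanged genes. The changed genes all had a mean of at least 50 and log2 changes of at least 0.5, and no simulated library stood apart. The simulation therefore gives no recovery for lower genes, for smaller changes or for data with an outlying library. Alternatives used DESeq2 1.42.0 and limma 3.58.1, other scalings and filters, a pseudocount of 0.5, 1 or 5, and each library left out.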

Additional observations from a re-analysis of the deposited data

How the results depend on the processing

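Under other tests, scalings and filters the count of genes called ran from 7077 with DESeq2 to 8123 with no filter on low counts, and leaving out 1 library gave 7160 to 7975. With a replicate block it was 7702. Deviations of the blebbistatin and Y27632 libraries with the same number correlated at 0.04, -0.13 and 0.13 over genes. Those with unlike numbers ran from -0.21 to 0.15, so no pairing by number was seen. With 3 libraries per group this cannot exclude a pairing. Raising the minimum mean to 50 normalised counts left 455 genes with a difference of at least 1, 277 higher with blebbistatin and 178 higher with Y27632, since fewer low genes are then tested. Leaving out 1 library gave 752 to 798 such genes, 457 to 527 higher with blebbistatin and 271 to 296 higher with Y27632. Of 128 genes named with values, 12 changed side or direction under any of 18 alternatives, 5 of them under an alternative other than leaving out a library. Signs turned only for genes near 0 or resting on 1 library: with each library left out in turn, Flna ran from -0.0329 to 0.00505, Myh9 from -0.0311 to 0.00322, Timp1 from -0.0581 to 0.0633, and Ifit1 from -0.42 to 2.51. Depth limits the genes under 100 normalised counts, whose median standard error was 0.24.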

Other observations

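Further gene groups were assembled after the values had been seen, so their counts describe the data and carry no test. Lysosomal genes were a large group that was higher with blebbistatin: 31 of 37 members were called higher and 0 lower, with a median log2 difference of 0.23, and their medians against DMSO were 0.38 with blebbistatin and 0.18 with Y27632. Gla, the alpha-galactosidase, had 2349, 2243 and 2389 normalised counts with blebbistatin against 1056, 1122 and 1121 with Y27632 and 878, 846 and 918 in DMSO, a log2 difference of 1.08 ± 0.04. Atp6v1b2, a subunit of the proton pump that acidifies lysosomes, differed by 0.84 ± 0.03, and Mitf, a transcription factor related to TFEB, by 0.81 ± 0.04. Targets of FoxO factors, genes of atrophy and fasting among them, were higher with blebbistatin in 16 of 22 cases and lower in 3, with a median of 0.39. Besides Trim63 and Gadd45a, Fbxo32, the other classical ubiquitin ligase of muscle atrophy, had 1427, 1505 and 1501 against 696, 744 and 699, with 835, 808 and 784 in DMSO. Pdk4, a brake on glucose oxidation, differed by 0.94 ± 0.10. Cited2 was higher with Y27632, at -0.87 ± 0.05.

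Fatty acid synthesis and lipid storage moved apart. All 10 genes of fatty acid synthesis were higher with Y27632, with a median of -0.34. Elovl6, a fatty acid elongase, had 3224, 3145 and 3417 with blebbistatin, 6659, 6698 and 6837 with Y27632 and 7615, 7655 and 7372 in DMSO, and the fatty acid synthase gene Fasn differed by -0.91 ± 0.05. Of 9 genes of lipid droplets and fatty acid use, 7 were higher with blebbistatin and 2 with Y27632, with a median of 0.52. Besides Plin4, Angptl4, a secreted inhibitor of lipoprotein lipase, had 184, 193 and 151 against 104, 41.7 and 68.3, and Cpt1a, which carries fatty acids into mitochondria, differed by 0.84 ± 0.04. Of 11 tubulin genes 9 were higher with Y27632 and 1 with blebbistatin, with a median of -0.46. Of 18 aminoacyl-tRNA synthetases 14 were higher with Y27632 and 2 with blebbistatin, with a median of -0.26. The 3 immunoproteasome subunits were higher with blebbistatin, with a median of 0.75 that became 0.57 without blebbistatin replicate 2. Of 5 Schwann cell markers tested, 2 were called higher with blebbistatin and 0 with Y27632, with a list median of 0.10. The summed normalised counts of that list ran from 1258 to 1369 with blebbistatin, from 1139 to 1227 with Y27632 and from 1538 to 1632 in DMSO. Of 4 mural cell markers tested, 1 was called higher with blebbistatin and 0 with Y27632, with a list median of -0.12. Over all tested genes 27.1% were higher with blebbistatin and 26.4% with Y27632, so the mural share with blebbistatin, 25%, lay near the background.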
